A study of Homo sapiens with 4 samples.

Results

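Cadherins and the other genes of epithelial cell junctions were followed in A549, a human lung adenocarcinoma cell line, on 4 cDNA arrays with 2 colours each. The set was defined by gene symbol alone: numbered cadherins, protocadherins, desmocollins, desmogleins, desmoplakin, plakoglobin, plakophilins, alpha- and delta-catenins, claudins, occludin, TJP1, connexins and EPCAM. It comprised 125 of the 26629 probes, each with exactly 1 gene symbol in the platform annotation, and 77 of the 12483 genes. Of these 77, 75 are protein-coding genes and 2 are antisense RNAs of the PCDH9 locus, PCDH9-AS2 and PCDH9-AS3, which share the protocadherin symbol stem. RefSeq lists 153 protein-coding genes whose symbols match, and the 78 without a single-symbol probe were not analysed here, among them CDH3, DSG2 and GJB2. A further 6 probes were left out because a second gene's symbol stood beside the matching one.

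Each array compared RNA of a culture transfected with let-7a-3, a microRNA gene of the let-7 family, with RNA of a parental A549 culture, both otherwise untreated. The parental line served as the control, so a transfection effect cannot be told apart from that of let-7a-3. The labels do not tell whether the transfected cultures came from 1 clone. Dyes were exchanged, so that arrays 1 and 3 had 1 orientation and arrays 2 and 4 the other.

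Cadherins are calcium-dependent adhesion receptors. The classical ones join neighbouring cells at adherens junctions and hold the actin cytoskeleton through catenins, while desmogleins and desmocollins join cells at desmosomes and hold keratin filaments through desmoplakin, plakoglobin and plakophilins. Claudins and occludin seal the space between epithelial cells at tight junctions, and connexins form the channels of gap junctions. Carcinoma cells that take on mesenchymal features typically have less E-cadherin (CDH1) and more N-cadherin (CDH2).

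The overexpressed gene is shown first, because its product is the agent all 4 arrays tested. The hairpin of MIRLET7A3 lies at chr22:46112749-46112822 on the plus strand (RefSeq, GRCh38.p14), with the mature 5p strand in capitals in the first line. In the other two lines the capitals mark the seed, bases 2 to 8, through which a microRNA recognises its target messages.
let-7a-3 hairpin: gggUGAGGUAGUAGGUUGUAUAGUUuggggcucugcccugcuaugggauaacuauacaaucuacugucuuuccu
hsa-let-7a-5p: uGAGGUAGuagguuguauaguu
hsa-let-7a-3p: cUAUACAAucuacugucuuuc

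The deposited value of a probe is a log ratio of the 2 channels of an array. Neither the base of the logarithm nor the culture in the numerator is stated by the sources at hand. A sign therefore says only on which side of 0 a gene lay, and turning all signs would fit the labels equally. Two-colour ratios also carry no expression level, so the epithelial identity of the line could not be checked from marker levels. The 4 array medians lay between -0.0022 and 0.017, and the number of arrays limits the precision. Each probe's values were split into a shared component, common to the 4 arrays, and an alternating component, which turned with the dyes. It is not known from the labels whether the ratios had been turned to 1 orientation before deposit, so either part could hold the difference between cultures. Across the 125 junction probes, arrays of the same orientation correlated at Pearson r = 0.38 (arrays 1 and 3) and 0.54 (arrays 2 and 4), and the other 4 pairs of arrays lay between -0.039 and 0.022. Over all 26629 probes the pattern was alike, with 0.43 and 0.56, and the other 4 pairs between -0.16 and 0.055. Probes share arrays and partly genes, so the coefficients are descriptive.

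Most junction genes lay near 0, and 2 stood clear of it on opposite sides: N-cadherin, CDH2 (-0.37 ± 0.05, SD, n = 4), and the connexin GJA1 (0.41 ± 0.09). Averaged over the probes of each gene, these 2 of the 77 genes passed a limma adjusted p of 0.05 in the shared component, or 2.60%, where 3.04% of all 12483 genes passed (1.63% positive and 1.41% negative). The other 75 did not pass. At the level of single probes 4 of 125 passed (3.20%), against 2.07% of all probes (1.12% positive and 0.946% negative), and the 2 further ones both belonged to the protocadherin PCDH9. These calls rest on limma's moderation of the variances: without it, 0 of all 26629 probes passed in the shared component, and 12 of the 125 junction probes had an unadjusted p under 0.05. In the shared component 42 junction genes were positive and 35 negative, around a median of 0.0052, while all genes had a median of 0.0069 with 54.2% positive. Regardless of sign, the median size was 0.045 among junction genes and 0.045 over all genes. A size of at least 0.2 was reached by 3 of 77 junction genes (3.90%) and by 4.09% of all genes.

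**Figure D1:**
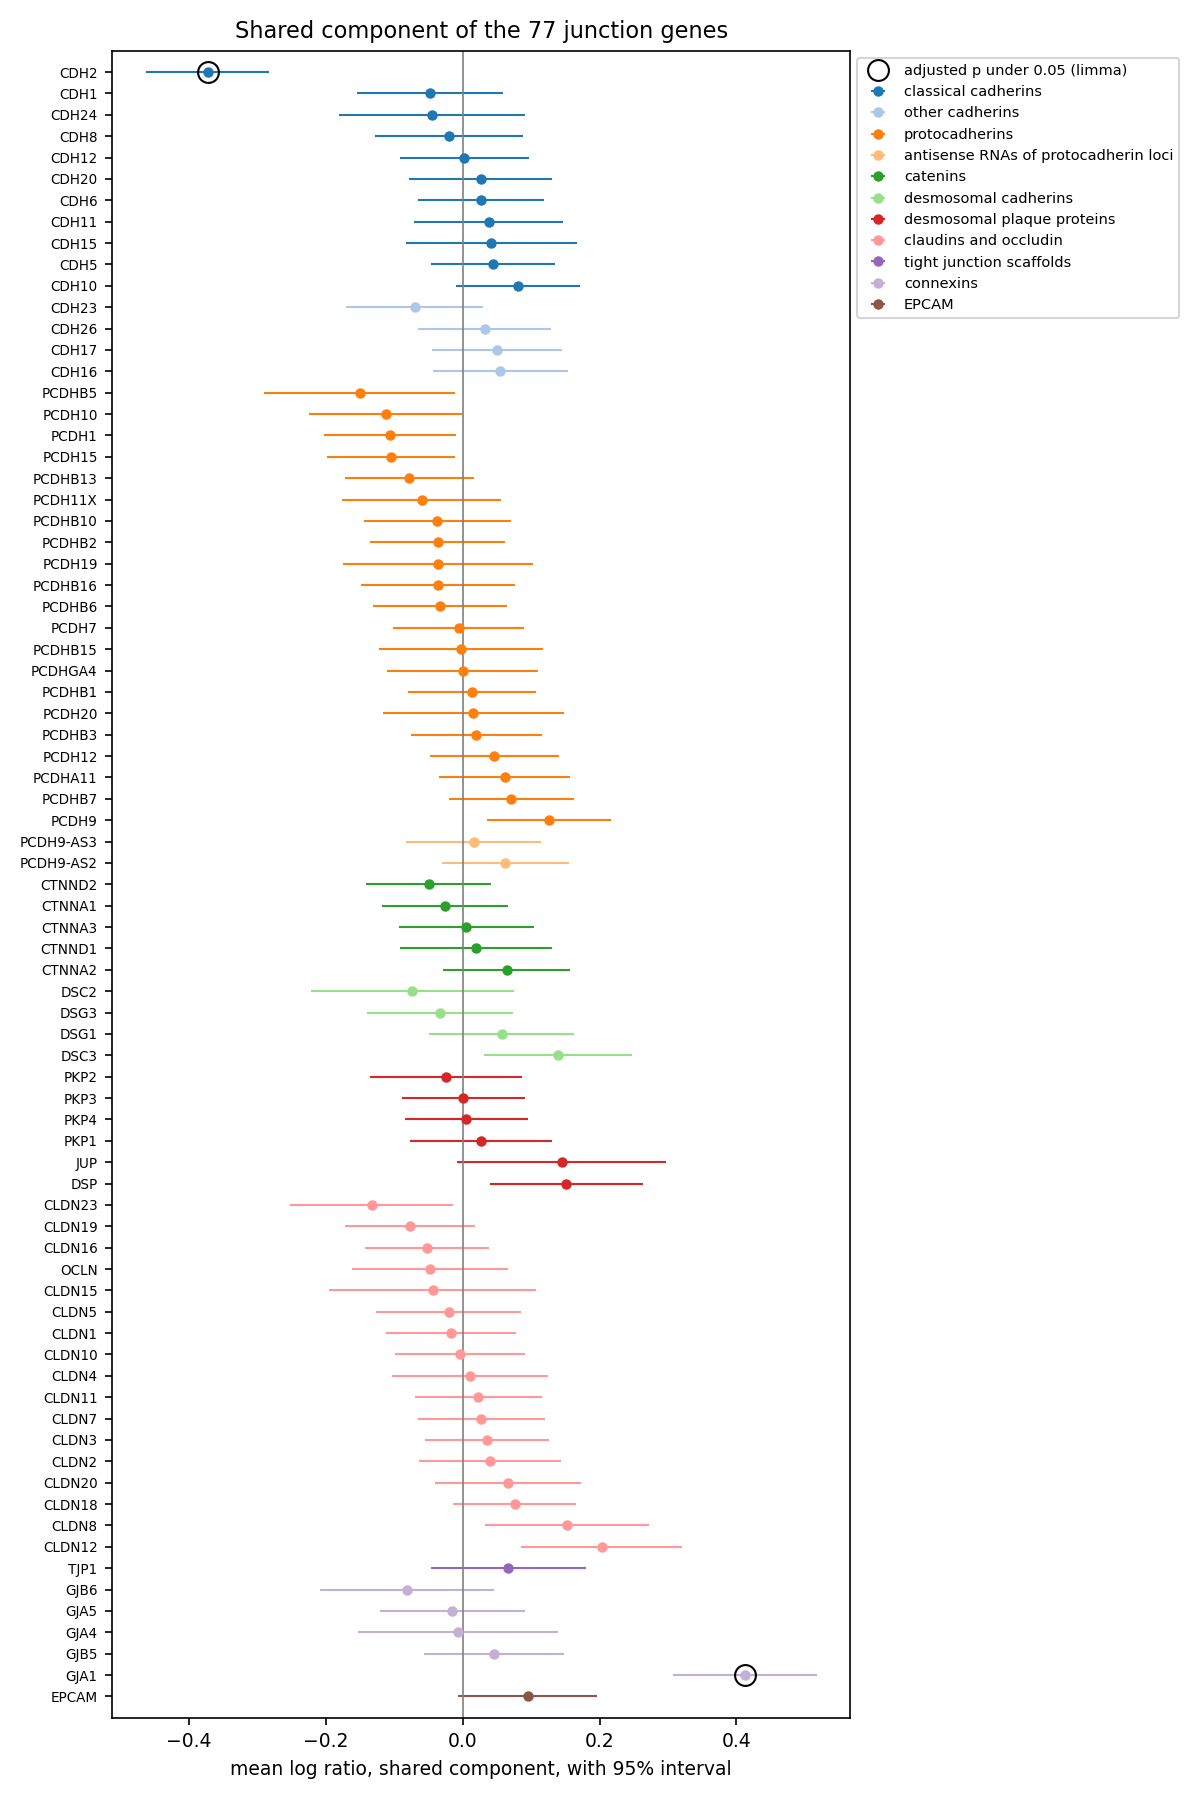
Mean log ratio of each of the 77 junction genes in the shared component (x axis, base not stated) with its 95% interval from limma, coloured by family and ordered within it. Circles mark CDH2 at -0.37 and GJA1 at 0.41, the 2 genes past the threshold, while the other 75 points lie between -0.15 and 0.20.

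Among the classical cadherins, CDH2, the cadherin of neural and mesenchymal cells, was represented by 1 clone. Its log ratio was -0.41, -0.33, -0.42 and -0.33 on arrays 1 to 4. All 4 values lay on the same side of 0 and close together, and the sign did not turn with the dyes (alternating component -0.043, limma adjusted p = 0.611). Fitted with the gene's single probe, the shared mean of -0.37 had a 95% interval from -0.48 to -0.26 and an adjusted p of 0.00376 in limma. At the gene level the adjusted p was 0.00183. Leaving out any 1 array kept the CDH2 probe past the threshold, with means from -0.38 to -0.37 and adjusted p from 0.0088 to 0.0321.

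E-cadherin, CDH1, the adhesion receptor that holds epithelial sheets together, was measured by 3 clones that did not give 1 answer. The first clone read -0.16, -0.18, -0.52 and -0.32 on arrays 1 to 4 and missed the threshold in limma (mean -0.29, adjusted p = 0.066). The second read 0.11, 0.12, -0.024 and 0.064, and the third 0.11, 0.097, 0.095 and 0.027. One clone thus lay below 0 on all arrays and another above 0 on all arrays, although the annotation assigns all 3 to the same transcript. Averaged, CDH1 stood at -0.048 ± 0.08 (SD, n = 4; limma adjusted p = 0.701), with an interval from -0.15 to 0.059. Without array 1 the first clone was among the probes that passed in limma. The difference between CDH1 and CDH2 was not tested.

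**Figure D2:**
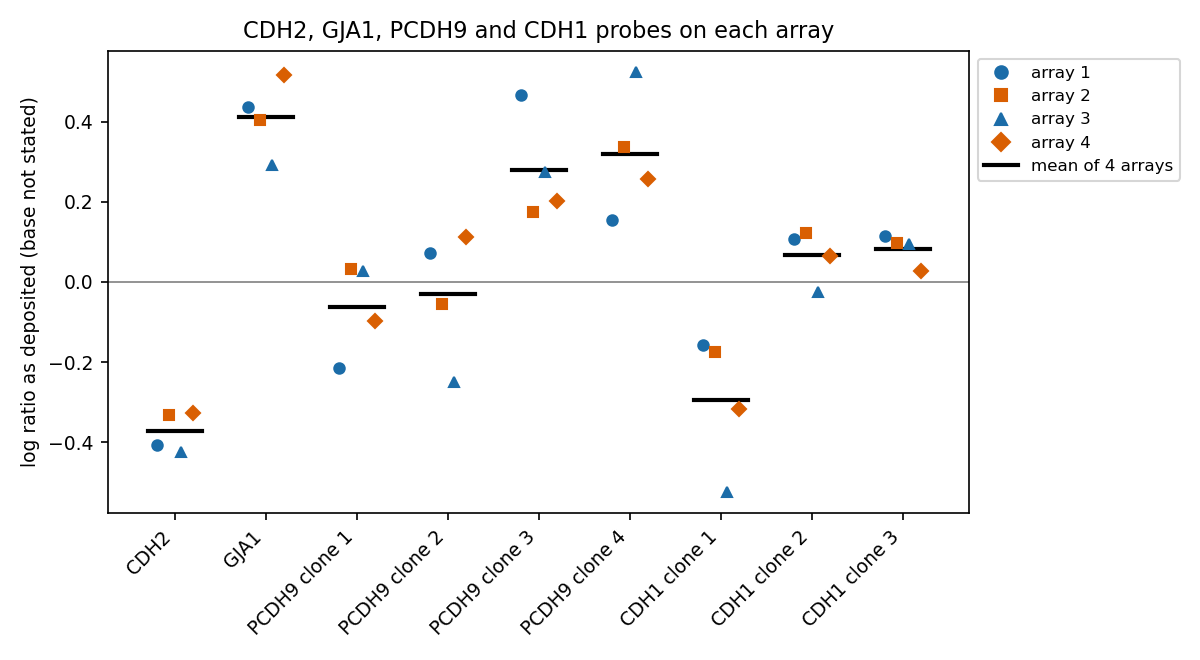
Log ratio as deposited (y axis, base not stated) of the CDH2, GJA1, PCDH9 and CDH1 probes on each array, with circles and triangles for arrays 1 and 3, squares and diamonds for arrays 2 and 4, and black bars for means. CDH2 is below 0 and GJA1 above 0 on all arrays, while the clones of PCDH9 and of CDH1 fall on both sides of 0.

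The other 9 classical cadherins lay between -0.045 and 0.081. VE-cadherin, CDH5, the cadherin of endothelium, was at 0.045 ± 0.09 (SD, n = 4), and OB-cadherin, CDH11, found on mesenchymal cells, averaged 0.038 ± 0.09 over its 3 clones. CDH10 had the highest mean of these (0.081, limma adjusted p = 0.401). CDH12 had a gene mean near 0 because its 2 clones cancelled, at -0.11 and 0.12, each with the same sign on all arrays and neither past the threshold. Of the 4 remaining cadherins, CDH16, known from kidney epithelium, was at 0.055, CDH26 at 0.032, and CDH23, a cadherin of the inner ear, at -0.070. None of these passed in the shared component.

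In RefSeq order CDH2 is followed directly by the desmosomal cadherins, 8 protein-coding genes in an unbroken run on chromosome 18. Of these, CDH2, DSC3, DSC2, DSG1 and DSG3 were measured, and only CDH2 passed in limma. Its immediate neighbour DSC3, a desmocollin of stratified epithelia, read 0.21, 0.21, 0.036 and 0.10 on arrays 1 to 4 (mean 0.14, adjusted p = 0.209). DSC3 was thus positive on all arrays, on the other side of 0 from CDH2. It passed at the gene level without array 3 (mean 0.18, limma adjusted p = 0.018), where 11.8% of all genes passed, and not without another array (means from 0.096 to 0.17, adjusted p up to 0.755). DSC2 averaged -0.074 over clones at -0.22, which passed only without array 1 among the fits leaving out an array, and 0.077. DSG1 was at 0.057, and DSG3 averaged -0.033 over clones at -0.072 and 0.0058.

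None of the 6 plaque proteins of the desmosome passed, and 5 had positive means, with a family median of 0.016. Desmoplakin, DSP, which ties the desmosome to keratin filaments, averaged 0.13, 0.0076, 0.31 and 0.15 on arrays 1 to 4. Its gene mean of 0.15 (95% interval 0.039 to 0.26; limma adjusted p = 0.185) came from 2 clones with positive means, at 0.12 and 0.18. Plakoglobin, JUP, which serves both desmosomes and adherens junctions, read -0.10, 0.20, 0.32 and 0.17 (mean 0.14, adjusted p = 0.374). Array 1 was the lowest for JUP, and without it both genes passed in limma, at 0.25 for JUP (adjusted p = 0.00137) and 0.20 for DSP (adjusted p = 0.0169). That fit rests on 1 residual degree of freedom and called 6.39% of all genes. Without another array neither passed, with means down to 0.039 for JUP (adjusted p up to 0.779) and 0.11 for DSP (up to 0.666). The plakophilins PKP1 (0.027), PKP2 (-0.025 over 3 clones), PKP3 (0.0011) and PKP4 (0.0052 over 6 clones) were near 0. PKP3 was the steadiest of them, between -0.021 and 0.020 on the 4 arrays.

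Catenins, which couple classical cadherins to actin or steady them at the membrane, did not pass as genes. Alpha-E-catenin, CTNNA1, was at -0.026 ± 0.08 (SD, n = 4) with both clones just below 0, and p120-catenin, CTNND1, at 0.019 ± 0.18. The neural alpha-catenin CTNNA2 averaged 0.064 over 6 clones, 5 of them positive. Its highest clone read 0.093, 0.39, 0.17 and 0.12 on arrays 1 to 4 and did not pass (mean 0.19, limma adjusted p = 0.175). Beta-catenin, CTNNB1, which the symbol rule did not take in, was at -0.014 over 4 clones (adjusted p = 0.911).

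Protocadherins, a large family of cadherin-like receptors best known from the nervous system, had 21 genes, of which 7 were positive, 14 negative and none past the threshold (median -0.034). PCDH9 carried the family's 2 called probes. Its clone IMAGp998C11163 read 0.47, 0.17, 0.28 and 0.20 on arrays 1 to 4 (mean 0.28, limma adjusted p = 0.032), and its clone IMAGp998I04285 0.15, 0.34, 0.53 and 0.26 (mean 0.32, adjusted p = 0.0443). Both were positive on all arrays. The other 2 PCDH9 clones averaged -0.063 and -0.029, each with values on both sides of 0, although the annotation gives all 4 clones the same transcripts. The mean of all 4 clones was 0.13 and did not pass (adjusted p = 0.169). Array choice also mattered: IMAGp998C11163 lost its call without array 1 (adjusted p = 0.0851), array 2 (0.175) or array 4 (0.203). IMAGp998I04285 lost its call without array 2 (adjusted p = 0.227), array 3 (0.0659) or array 4 (0.127). The antisense RNAs PCDH9-AS2 (0.062, adjusted p = 0.542) and PCDH9-AS3 (0.016, adjusted p = 0.903) were near 0.

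Lowest among the protocadherins was PCDHB5, which read -0.57, 0.038, -0.22 and 0.15 and so separated arrays 1 and 3 from arrays 2 and 4 (shared mean -0.15, limma adjusted p = 0.299). PCDH1, an adhesion protein of airway epithelium, was at -0.11 and PCDH15, a partner of CDH23 in the inner ear, at -0.10, each with adjusted p near 0.29. The 12 measured genes of the clustered alpha, beta and gamma protocadherins lay between -0.15 and 0.071, with 4 positive and 8 negative and no call. These single-exon beta genes and their relatives are close in sequence, so a cDNA clone of 1 may also bind RNA of another, and the gene assignment is uncertain.

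At the tight junction, none of 17 claudin and occludin genes passed, and 9 of them were positive and 8 negative (median 0.011). CLDN12 came nearest in the shared component, with 0.072, 0.51, -0.069 and 0.29 on arrays 1 to 4 (mean 0.20, limma adjusted p = 0.0885 at the gene level). Its values were high on arrays 2 and 4 and near 0 on arrays 1 and 3, and its shared and alternating components were of like size (0.20 and -0.20). CLDN8, a claudin of tight epithelia, was positive on 3 arrays, with 0.43 on array 1 and -0.039 on array 2 (mean 0.15, adjusted p = 0.217). CLDN23 was negative on 3 arrays (mean -0.13, adjusted p = 0.286). Without array 3, where 11.8% of all genes passed, so did CLDN12 (0.24, limma adjusted p = 0.00296) and CLDN8 (0.22, adjusted p = 0.00452). Neither passed without another array, where the means ranged from 0.15 to 0.26 for CLDN12 (adjusted p up to 0.526) and from 0.087 to 0.17 for CLDN8 (up to 0.628).

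The claudins best known from airway and alveolar epithelium were near 0 in the shared component. CLDN18, whose lung isoform marks alveolar cells, was at 0.076 ± 0.09 (SD, n = 4). CLDN1 was at -0.017, CLDN3 at 0.035, CLDN4 at 0.011, CLDN7 at 0.027 and the pore-forming CLDN2 at 0.040. CLDN4 read 0.16, -0.27, 0.18 and -0.032 on arrays 1 to 4. Its alternating mean of 0.16 did not pass (limma adjusted p = 0.101). For CLDN3 the 95% interval ran from -0.056 to 0.13 and for CLDN7 from -0.066 to 0.12. Differences within those bounds remain possible, and the bounds are not a limit of detection. The larger DSP mean of 0.15, with an interval from 0.039 to 0.26, did not pass either (limma adjusted p = 0.185). Occludin, OCLN, was at -0.047 (interval -0.16 to 0.067). ZO-1, TJP1, the scaffold beneath claudins, averaged 0.067 over 3 clones. One TJP1 clone was even across arrays, at 0.12, 0.14, 0.10 and 0.13, while another ranged from -0.47 to 0.28, and none passed. EPCAM, an adhesion molecule of simple epithelia, read 0.16, 0.021, 0.28 and -0.088 (mean 0.095, adjusted p = 0.380).

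GJA1, the most widespread connexin of gap junctions, read 0.44, 0.40, 0.29 and 0.52 on arrays 1 to 4. All 4 values were clearly positive, and the arrays of both orientations overlapped (alternating component -0.049, limma adjusted p = 0.596). Its single clone had a shared mean of 0.41 with a 95% interval from 0.29 to 0.53 and an adjusted p of 0.00363. Without any 1 array the mean stayed between 0.38 and 0.45 and the adjusted p between 0.00412 and 0.0311. No other connexin passed: GJA4 was at -0.0066, GJA5 at -0.015, GJB5 at 0.046 and GJB6, an epithelial connexin, at -0.081 (interval -0.21 to 0.046). Lowest to highest, the 5 connexins therefore ran from -0.081 to 0.41, with the 4 other than GJA1 within 0.13 of one another.

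Promoters of the 2 called genes are shown because these genes stood on opposite sides of 0 and because SNAI and ZEB factors, described with the partner genes, act through E-boxes. Each window runs from 250 bases before to 50 after the gene's start in RefSeq (GRCh38.p14), and 55 of the 77 member symbols had such an entry. CDH2 has 2 listed starts, and the first lies at chr18:28177081-28177380 on the minus strand. The GJA1 window is chr6:121435396-121435695 on the plus strand. Capitals mark the general E-box CANNTG, in which N is any base, and the AP-1 motif TGANTCA. Both were searched on both strands, which read alike for these motifs. A match to the general E-box is not by itself a SNAI or ZEB site.
CDH2: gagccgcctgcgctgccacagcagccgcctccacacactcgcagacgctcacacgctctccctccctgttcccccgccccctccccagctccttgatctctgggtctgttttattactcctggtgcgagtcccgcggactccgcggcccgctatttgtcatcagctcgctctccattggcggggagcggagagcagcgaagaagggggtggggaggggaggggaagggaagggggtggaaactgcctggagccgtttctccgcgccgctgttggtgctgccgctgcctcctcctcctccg
GJA1: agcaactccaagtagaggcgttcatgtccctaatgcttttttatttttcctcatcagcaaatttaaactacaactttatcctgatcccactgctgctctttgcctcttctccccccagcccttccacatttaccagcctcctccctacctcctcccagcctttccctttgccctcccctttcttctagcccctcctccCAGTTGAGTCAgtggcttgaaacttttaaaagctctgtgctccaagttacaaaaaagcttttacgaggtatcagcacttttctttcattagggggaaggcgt
The GJA1 window held 1 E-box, CAGTTG, and 1 AP-1 motif, TGAGTCA, which overlap, and the CDH2 window held neither. Over all 35116 listed windows 68.7% held an E-box and 7.71% an AP-1 motif. These matches describe letters in a window only.

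**Figure D3:**
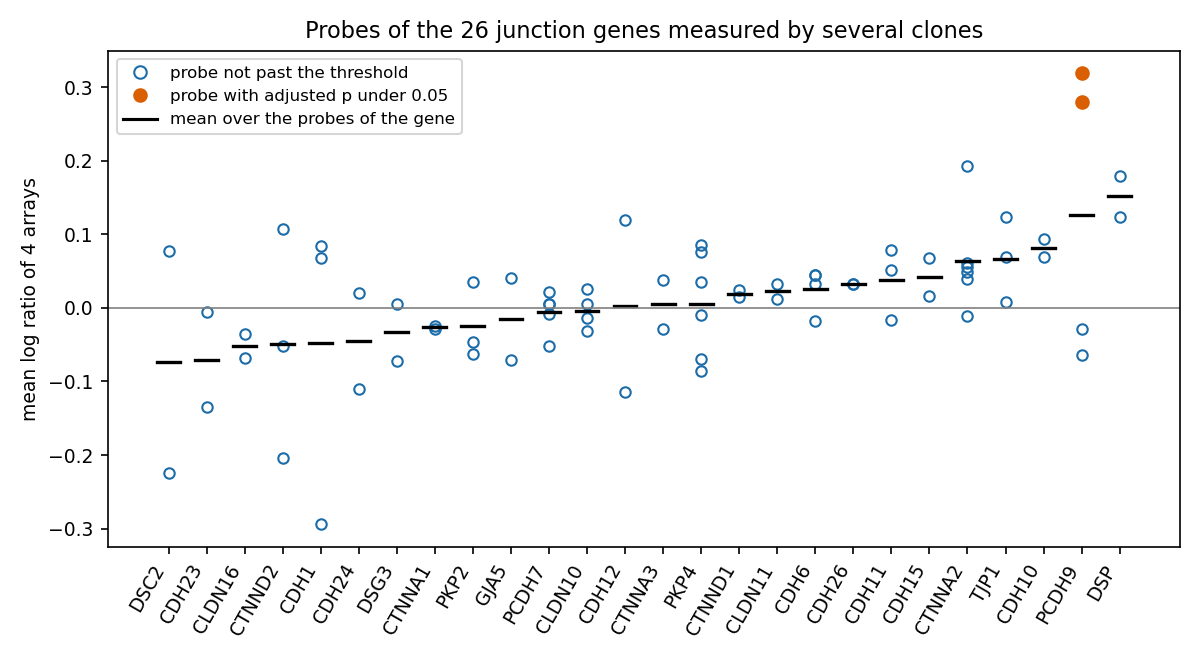
Mean log ratio over the 4 arrays (y axis, base not stated) of every probe of the 26 junction genes with several clones, with black bars for gene means and filled points for the 2 called PCDH9 probes. In 16 of the 26 genes the probes lie on both sides of 0, as in PCDH9, CDH1, DSC2 and CTNND2.

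How far clones of a gene agreed could be seen in 26 junction genes with several probes, 74 probes in all. In 7 of them all probes had positive means, in 3 all had negative means, and in 16 the signs were mixed. The 51 genes with 1 probe, CDH2 and GJA1 among them, have no second clone to compare with. Of the 125 junction probes 20 had 1 sign on all 4 arrays (16.0%), and of all probes 14.1% did.

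Genes that work with the junction proteins were taken from lists chosen with earlier results of these data known. Of 64 such genes measured, 6 passed in the shared component, all positive, where 1.63% of all genes passed on the positive side. Single clones passed on both sides, 8 positive and 2 negative of 134 probes, where 1.12% and 0.946% of all probes did. Because the lists were chosen in that way, these counts are no test of enrichment. The 2 negative ones belonged to the actin crosslinker ACTN4 (-0.28, limma adjusted p = 0.0215) and the polarity protein PARD3 (-0.34, adjusted p = 0.01). Among 6 measured desmosome partners PERP and KRT8 passed and 4 did not. PERP, a membrane protein needed for desmosomes, read 0.83, 0.67, 0.93 and 0.85 on arrays 1 to 4 (mean 0.82, limma adjusted p = 7.52e-05). All 4 values were clearly positive, with the lowest on array 2. Keratin 8, KRT8, a filament protein of simple epithelia, read 0.48, 0.46, 0.20 and 0.42 (mean 0.39, adjusted p = 0.00698).

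Among 10 tight junction partners CXADR, an adhesion protein that also serves viruses as a receptor, passed with 0.50, 0.40, 0.32 and 0.64 (mean 0.47, limma adjusted p = 0.00349), and 9 did not pass. Of 15 adherens junction partners ABLIM1, an actin-binding protein, passed (0.28, adjusted p = 0.0217) and 14 did not. Its mean rested on 1 of 4 clones, which read 1.05, 0.90, 0.95 and 0.82, while the others averaged -0.0025, 0.040 and 0.16. Without array 2 ABLIM1 did not pass (adjusted p = 0.154). Of the nectins, adhesion receptors beside the cadherins, 1 of 5 NECTIN2 clones passed (0.29, adjusted p = 0.0224). As gene means 0 of 11 apical polarity genes and 0 of 14 cadherin sheddases and regulators passed in limma, with medians of -0.021 and -0.018 against 0.0069 over all genes. Each list held 1 clone called in the shared component, 1 of 6 PARD3 clones and 1 of 3 clones of the scaffold IQGAP1 (0.24, adjusted p = 0.0449).

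Of 9 measured transcription factors known to set epithelial or mesenchymal state, 2 passed in the shared component, where 3.04% of all genes did. These were KLF4 and ELF3, both positive and both known for roles in epithelial differentiation. KLF4 read 0.60, 0.37, 1.02 and 0.50 on arrays 1 to 4 (mean 0.62, limma adjusted p = 0.00232). ELF3 averaged 0.23, 0.38, 0.26 and 0.41 over 2 clones (mean 0.32, adjusted p = 0.00432), with clones at 0.54 and 0.10. In the shared component the repressors of E-cadherin lay near 0, with none past the threshold. SNAI1 was at -0.083 (95% interval -0.19 to 0.024), SNAI2 at 0.027 (interval -0.085 to 0.14), ZEB1 at 0.026 and ZEB2 at -0.010. SNAI2 read -0.050, 0.18, -0.27 and 0.25 on arrays 1 to 4. Its alternating mean of -0.19 did not pass either (limma adjusted p = 0.0721).

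**Figure D4:**
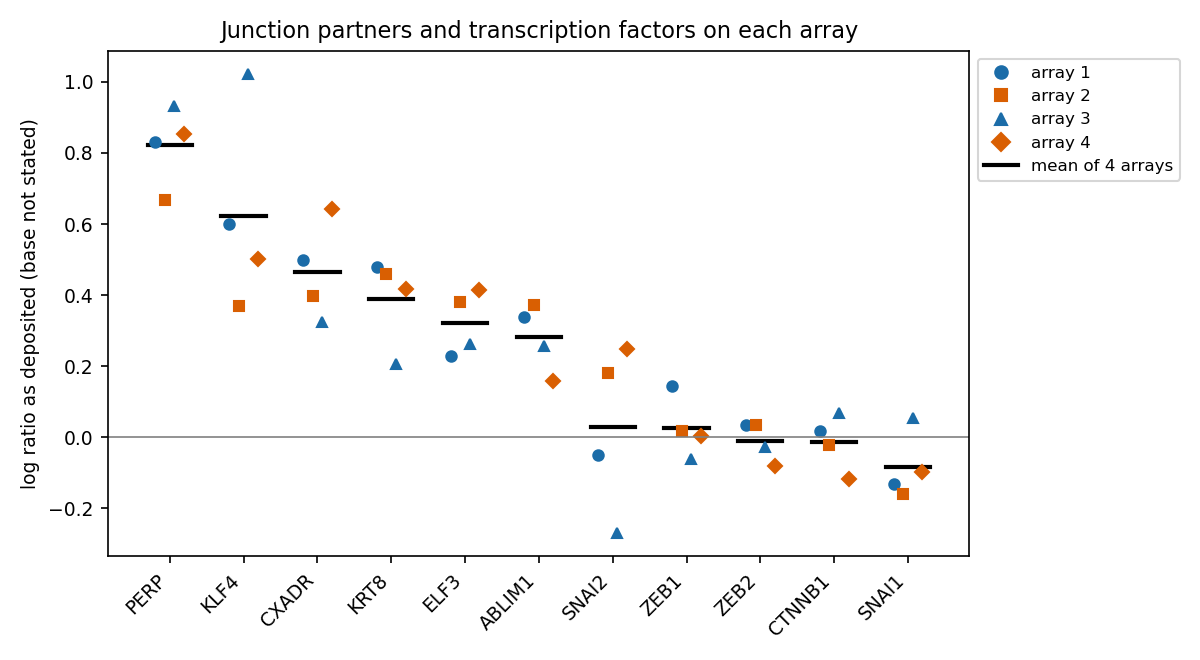
Log ratio as deposited (y axis, base not stated) on each array for partner genes past the threshold in the shared component and for CTNNB1, SNAI1, SNAI2, ZEB1 and ZEB2, averaged over the probes of each gene, with black bars for means. PERP, KLF4, CXADR, KRT8, ELF3 and ABLIM1 are positive on all arrays, and the other 5 genes spread around 0.

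In the shared component 0 of 11 markers of fibroblasts and 0 of 9 markers of endothelium passed in limma, and of 6 blood cell markers NKG7 passed (-0.26, adjusted p = 0.0141). Among 17 airway and alveolar epithelial markers FOXA1 (0.33) and KRT8 (0.39) passed positive, and 14 did not pass. HOPX, a gene of alveolar type I cells, passed negative (-0.31, limma adjusted p = 0.00788). Over all genes 1.63% passed positive and 1.41% negative. FOXA1 averaged clones at 0.59 and 0.073. The higher clone read 0.83, 0.36, 0.82 and 0.35 on arrays 1 to 4 and also passed in the alternating component (0.24, limma adjusted p = 0.0354). Summed levels of these lists cannot be had from ratios, and their part in the junction results was not tested.

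In the alternating component, given with the sign of arrays 1 and 3, 4 of 125 junction probes passed (3.20%), where 4.28% of all probes did (2.81% positive and 1.48% negative), and none of them passed in the shared component. As gene means 1 of 77 passed (1.30%) against 3.29% of all genes (1.9% positive and 1.39% negative). CDH17, the liver-intestine cadherin, was that gene, and its 1 clone read 0.26, -0.16, 0.33 and -0.23 on arrays 1 to 4 (alternating mean 0.24, limma adjusted p = 0.0346 for the probe). The sign turned with the dyes at each array. PKP4, a plakophilin of adherens junctions and desmosomes, had the highest value through 1 of its 6 clones, with 0.46, -0.26, 0.36 and -0.23 (alternating mean 0.33, adjusted p = 0.016). Its other 5 clones had alternating means from -0.036 to 0.089.

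CLDN11, the claudin of myelin and testis, passed through 1 of 2 clones, which read -0.16, 0.22, -0.20 and 0.28 (alternating mean -0.21, limma adjusted p = 0.0462), while its other clone was at 0.087. CTNND2, the neural delta-catenin, passed through 1 of 3 clones, which read -0.55, 0.021, -0.33 and 0.044 (alternating mean -0.24, adjusted p = 0.0476). Its shared mean was of like size but did not pass (-0.20, adjusted p = 0.125). Averaged over clones, PKP4 (0.072), CLDN11 (-0.063) and CTNND2 (-0.13) did not pass. None of the 4 probes passed without array 2, with adjusted p from 0.0963 to 0.205, or without array 4, with 0.0787 to 0.262. Without array 3 CDH17 (0.0564) and CLDN11 (0.0714) were lost, and without array 1 CTNND2 (0.075). Among the 64 partner genes 1 passed positive and 2 negative, where 1.9% and 1.39% of all genes did. The positive one was NECTIN1, an immunoglobulin-type adhesion receptor of adherens junctions, at 0.24. Of the 134 partner probes 4 passed positive and 1 negative, where 2.81% and 1.48% of all probes did. The positive ones were single clones of NECTIN1, PTPRK (0.57), TCF4 (0.27) and DLG1 (0.22). As gene means the transcription factor OVOL1 (-0.21) and the tight junction protein ESAM (-0.31) passed on the negative side. ESAM is also an endothelial marker, and with the receptor TEK (-0.20) it made 2 of 9 endothelial markers called in this component. Both were negative, and 1.39% of all genes passed on that side. The list was not of 1 sign: ENG (0.17), TIE1 (0.13) and PECAM1 (0.043) had positive alternating means and did not pass. The remaining markers of the list had negative ones. The part of that list in the junction results was not tested.

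**Figure D5:**
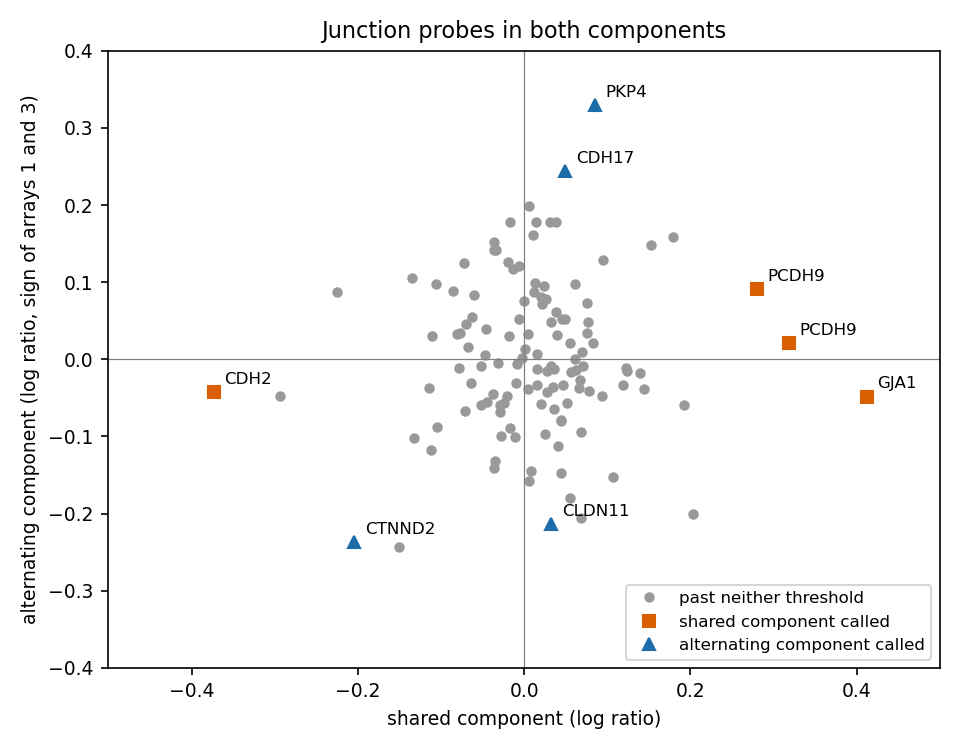
Each of the 125 junction probes by its shared component (x axis) and its alternating component (y axis, sign of arrays 1 and 3), both as log ratios of unstated base, with squares and triangles for the probes called in each. The called probes of CDH2, GJA1, PKP4, CDH17 and CLDN11 lie near an axis, while that of CTNND2 has both components of like size, at -0.20 and -0.24.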

How the data were processed

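RNA of let-7a-3 and parental A549 cultures was compared on 4 two-colour arrays, treated as 1 group. The authors used ArrayMagic with variance-stabilizing normalization, according to the design text, and this compresses ratios of dim spots. The deposited values are log ratios, used with no further normalization. The table holds no intensities, so dim probes were not filtered. The design text names biological replicates and a dye swap, and the labels do not tell whether the transfected cultures came from 1 clone. P-values rest on the spread left within each dye orientation after the fit, moderated by limma, which may be technical. An SD beside a mean is taken over all 4 arrays and also holds the dye-following part.

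Gene symbols came from the platform annotation, and a gene's value is the mean of its probes. limma 3.58.1 (R 4.3.3) fitted a shared and a dye-following coefficient, leaving 2 residual degrees of freedom, with 7.22 added by moderation for probes and 5.89 for genes. P-values are two-sided, Benjamini-Hochberg adjusted over all probes or genes, at 0.05. The fit was also run on data simulated under its own variance model, which cannot test whether that model holds for these arrays. Named genes were those called, the 3 with the largest statistic per family, and 27 listed junction genes, 22 of them measured. Members and lists were chosen with earlier results of these data known. Figures used matplotlib 3.10.9.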

Additional observations from a re-analysis of the deposited data

Results flagged for a closer look

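Of 105 values tested over the 4 arrays, 2 had an array set apart from the other 3 by Dixon's criterion, where chance gives about 5% of groups. The gene mean of PCDH9 was 0.145 on array 3, with the other arrays between 0.119 and 0.122. One of the 2 CDH23 clones read 0.172 on array 1, with the others between -0.081 and -0.048.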

How the results depend on the processing

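CDH2 and GJA1 passed in the shared component, as probes and as genes, under each alternative run except limma's fit without moderation. There 0 junction probes and 0 junction genes passed in either component, with unadjusted p under 0.05 for 12 shared and 13 alternating probes and 9 shared and 12 alternating genes. Without the dye term the shared count of probes fell from 4 to 2 (all probes 550 to 231) and the alternating counts to 0 probes and 0 genes in limma (unadjusted 20 and 12), with all probes falling from 1141 to 102 and all genes from 411 to 10. With arrays centred on their medians 2 alternating probes remained, CDH17 and PKP4, and the junction median moved from 0.0052 to -0.0029. With the smallest-p probe of each gene, 2 genes passed in the alternating component, CDH17 and PKP4. Leaving out 1 array gave 2 to 5 shared and 0 to 5 alternating probes, 2 to 6 shared and 0 to 9 alternating genes, and a median of 0.0078 to 0.013. Over all features these fits called 271 to 884 and 113 to 1874 probes, and 179 to 1471 and 39 to 2292 genes, so the counts of junction genes moved with the background. No called value among the named results changed sign, and 11 named results short of the threshold did under some alternative. No paired analysis was possible because the arrays form 1 group, beyond the fit given, in which each log ratio already is a difference within a pair of cultures.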
